A study of Homo sapiens with 6 samples.

Results

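The integrated stress response transcripts examined here are the mRNAs of 9 genes: ATF4, ATF3, DDIT3, DDIT4, CHAC1, TRIB3, ASNS, SESN2 and PPP1R15A. They were chosen by name, as ATF4 and well-known genes of the response it drives, with earlier results of these data known. They were looked up in a table of m6A peaks and in 2 tables of TRMT10A CLIP clusters. They are 9 of 9279 gene identifiers in the m6A table. In the integrated stress response, kinases phosphorylate the alpha subunit of the translation initiation factor eIF2, which lowers protein synthesis in general. Ribosomes that pass over inhibitory upstream reading frames then translate ATF4, and this transcription factor switches on genes for amino acid supply, redox balance, feedback control and, through DDIT3, cell death. N6-methyladenosine (m6A) is a methyl mark on adenosines of mRNA, laid down mainly within the sequence called DRACH, of which GGACT, written here as in DNA, is the best known form.

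All samples came from HEK293T, an established human embryonic kidney line, and the labels name no stress treatment. For m6A mapping, cells received siRNA against TRMT10A, a methyltransferase known for methylating guanosine in tRNAs, or a control siRNA. Each arm gave 1 library of RNA pulled down with an m6A antibody and 1 input library. The CLIP samples (crosslinking and immunoprecipitation of TRMT10A with its RNA) form 1 group of 2 replicates, with no control pull-down. Their siRNA label gives the name TRMT10A and leaves the knockdown unstated. The labels' protocols give siRNA transfection, poly(A) selection and removal of ribosomal RNA for all samples.

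The m6A table lists 26475 peaks by RefSeq transcript and by position on it, and gives no values per library, so the sequencing depth behind a peak is unknown. CLIP replicate 1 lists 342690 conversion events in 1675 clusters, and replicate 2 lists 496030 in 2183. Positions are given on hg38. Peaks were placed on the GENCODE release 29 transcript that carries the table's RefSeq accession, which worked for 25465 peaks (96.2%). The region of a peak is that of its middle base. No test between the arms was possible with 1 library of each kind per arm, and no p-value is given.

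The sequences that the results below turn on come from the coding parts and 1 untranslated part of 5 of these mRNAs, in the 5′ to 3′ direction of the transcript. The first set shows GGACT, in capitals, with 10 bases on each side, where it lay inside an m6A peak of a member and stayed there under the alternative transcript starts described below. They are shown because the m6A table scores this motif. They were read from the GENCODE transcripts on hg38.
DDIT4, early coding sequence, chr10:72274362-72274386, plus strand: tggagagctcGGACTgcgagtccct
DDIT4, late coding sequence, chr10:72275022-72275046, plus strand: tgctgcgcctGGACTcacgactctg
DDIT4, 3′ untranslated region, chr10:72275262-72275286, plus strand: aggagctgagGGACTgattcctgtg
SESN2, start of the coding sequence, chr1:28259849-28259873, plus strand: tgatcgtggcGGACTccgagtgccg
SESN2, start of the coding sequence, chr1:28259876-28259900, plus strand: cagagctcaaGGACTacctgcggtt
PPP1R15A, early coding sequence, chr19:48873548-48873572, plus strand: tgaagcctggGGACTtttggatgat

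The second set holds the TRMT10A CLIP clusters of members that are 30 bases long or shorter, 6 of 7, each in full. They are shown because they are the stretches of these mRNAs listed as bound. All come from coding sequence.
ATF4, chr22:39521622-39521645, plus strand: cgaatggctggctgtggatgggtt
ATF4, chr22:39522006-39522029, plus strand: gttgcccccttcaccttcttacaa
ATF4, chr22:39522257-39522286, plus strand: taccaggggctctccaaataggagcctccc
DDIT4, chr10:72275032-72275057, plus strand: ggactcacgactctggcccaagatcc
ASNS, chr7:97852372-97852392, minus strand: accgtcaagtctttgaacgcc
SESN2, chr1:28271726-28271746, plus strand: tgatgtcctctgggcgagtag

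Every member had an m6A peak listed. All 9 genes had at least 1 peak and none was without, where 44.6% of 20056 protein-coding genes had one. That share is over all annotated protein-coding genes, whether or not these cells express them. Expression was not examined, so the 2 shares are not set on equal terms. The number of peaks was ordinary for genes that have any. The members held 19 peaks in all, with a median of 2 per gene (1 to 3), and the median over all genes in the table was also 2. ATF3, DDIT4 and SESN2 had 3 peaks each, CHAC1, TRIB3, ASNS and PPP1R15A had 2, and ATF4 and DDIT3 had 1. Having 3 or more peaks is common in the table, at 46.1% of genes with a peak. Peak length was close to the table's as well, with a median of 171 bases (100 to 458) against 175. The 8 transcripts that could be placed had a median length of 2188 bases (858 to 3453) against 3220 over the table, and carried a median of 0.859 peaks per 1000 bases against 0.784 over all placed transcripts.

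**Figure D1:**
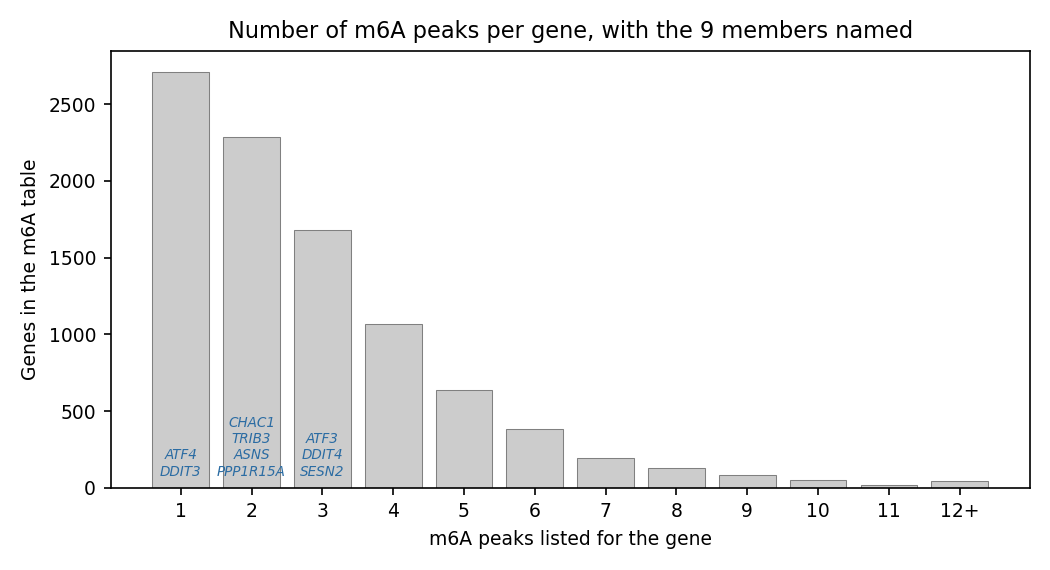
Number of genes in the m6A table (vertical axis) by the number of peaks listed for them (horizontal axis, with 12 or more in the last bar), with the 9 members written in the bar they belong to. All 9 sit in the bars for 1, 2 or 3 peaks, where most genes of the table sit too.

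By position, 11 of the 17 placed peaks had their middle in the coding sequence, 4 in the 3′ untranslated region, 1 in the 5′ untranslated region and 1 beyond the end of the matched transcript. Over all 25096 placed peaks of coding transcripts the shares were 69.4% for coding sequence, 19.4% for the 3′ and 9.08% for the 5′ untranslated region, and 2.09% lay beyond the end. On the GENCODE transcripts the stop codon lay inside 2 member peaks, in DDIT3 and TRIB3, and the start codon inside 2 others, in SESN2 and PPP1R15A. Each of these features is found in about 1 in 10 peaks of the table, at 9.51% for the stop codon and 9.02% for the start codon. The region, and the codons inside a peak, depend on where the authors' transcript began. Current RefSeq start sites were tried as a second anchor where they could be placed. For ATF3 and ASNS not every listed start could be. Under the starts tried, 15 of the 17 peaks kept their region, counting as kept the ATF3 peak beyond its transcript. The exceptions were the first peak of TRIB3 and the first of SESN2. With these starts the second TRIB3 peak would no longer hold the stop codon, and the first ASNS peak would hold the start codon.

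GGACT was found on the transcript strand in 6 of the 17 placed peaks, 7 times in all, in DDIT4, SESN2, TRIB3 and PPP1R15A. Over all placed peaks, 22.2% held GGACT. DRACH, which includes GGACT, was found in 15 of the 17 peaks, 46 times, where 93.0% of all placed peaks held it. With 25 more bases on each side, GGACT was found in the same number of member peaks, 6, and in 26.8% of all placed peaks. The peak without DRACH inside its transcript was that of ATF4, and the missing match says only that these letters are not in that window. The other one, in ATF3, lay beyond the matched transcript and had no sequence to search.

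**Figure D2:**
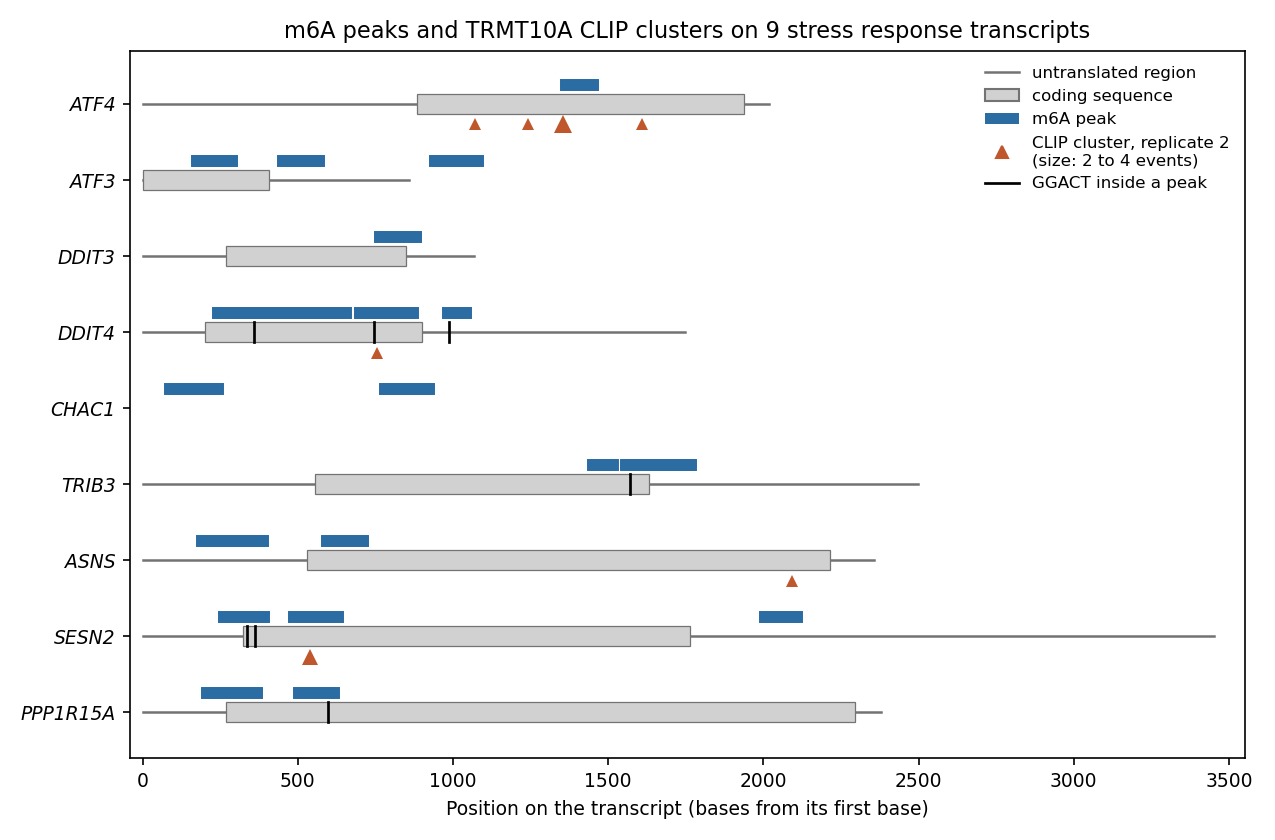
Each line is 1 member's transcript in bases from its first base (horizontal axis), with coding sequence as a grey box, untranslated regions as a line, m6A peaks as blue bars above, CLIP clusters of replicate 2 as triangles below (larger with more events, 2 to 4) and GGACT inside a peak as a black tick. CHAC1 has no matched transcript, so that its peaks stand at the table's own numbers; DDIT4 is the only placed member whose coding sequence is nearly all under peaks.

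ATF4, the transcription factor at the centre of the response, had a single peak, and it lay inside the coding sequence rather than among the upstream reading frames. The peak ran from base 1341 to base 1470 of a transcript of 2019 bases whose coding sequence spans 883 to 1938, which is chr22:39522005-39522134. It began 458 bases after the first base of the start codon and covered 12.3% of the coding sequence. The matched transcript is the longer ATF4 form, with 882 bases before the start codon, in which 7 upstream reading frames of ATG and an in-frame stop begin. Of these, 2 end just past the start codon, at base 886. None of the 7 touched the peak, which began 455 bases after the last of them ended. On the shorter ATF4 transcript the upstream frames include one of 3 codons and one of 59 codons that runs past the start codon of ATF4, the arrangement ATF4 is known for. If the table's numbers had been counted on that shorter form, the peak would begin 5 bases after its coding sequence, in the 3′ untranslated region, and would run past the end of that GENCODE transcript, which is 1419 bases long. The table names the longer form. With the RefSeq starts listed for ATF4, 2 or 5 bases away from the GENCODE start of the longer form, the peak stayed in the coding sequence.

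ATF3 and DDIT3 are stress-induced transcription factors of the same bZIP class. ATF3 had 3 peaks, at bases 152 to 306, 430 to 587 and 920 to 1100. The first lay in the coding sequence, the second in the 3′ untranslated region and the third past the end of the matched transcript, which is an incomplete model of 858 bases whose coding sequence begins at its first base. Neither of the first 2 held GGACT. DDIT3, also called CHOP, which turns on cell death genes under lasting stress, had a single peak at the end of its coding sequence. It ran from base 741 to base 900 of 1067, at chr12:57516756-57516915 on the minus strand, with 107 coding bases, the stop codon and the start of the 3′ untranslated region. It held DRACH 3 times and GGACT never, and it did not touch any of the 4 upstream reading frames of DDIT3.

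PPP1R15A, also called GADD34, brings protein phosphatase 1 to eIF2alpha and so ends the response. Both of its peaks lay at the start of the message. The first, at bases 186 to 389, held the start codon and also overlapped an upstream reading frame of 26 codons at bases 163 to 243. That was the only upstream frame that a peak overlapped among the placed members that could be searched. ATF3 could not be, because its incomplete model has no 5′ untranslated region. The second peak, at bases 481 to 637 (chr19:48873445-48873601), lay in the coding sequence and held the GGACT shown above, 39 bases from its nearer edge. Together they covered 13.7% of the coding sequence.

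TRIB3, a pseudokinase induced by ATF4 that damps its activity, had 2 peaks that touched without a gap. They spanned bases 1428 to 1534 and 1535 to 1785 and so ran across the stop codon, with 203 coding bases in all. The second held GGACT once on the GENCODE transcript. This placement is weak. The current RefSeq starts of TRIB3 lie 347 to 395 bases away, and with any of them both peaks fell in the 3′ untranslated region and the GGACT fell outside.

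DDIT4, also called REDD1, restrains the growth kinase complex mTORC1, and its message was the one most covered by m6A peaks. Its 3 peaks took up 44.2% of the transcript and 96.1% of the coding sequence, 672 of 699 bases. No other placed member had more than 38.0% of its coding sequence in peaks, the value of ATF3 on its incomplete model, and the lowest was 9.49% in ASNS. The first DDIT4 peak, bases 219 to 676, was the longest of all member peaks at 458 bases, crossed a splice junction (chr10:72274234-72274964) and held DRACH 8 times. The second, bases 677 to 890, touched it without a gap, and the third, bases 961 to 1060, lay in the 3′ untranslated region. Each of the 3 held GGACT once, and the 3 sites are those shown first above, 138, 67 and 23 bases from the nearer edge of their peak. DDIT4 has no upstream reading frame, and its RefSeq start differed from the GENCODE start by 4 bases.

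SESN2, a leucine sensor that also restrains mTORC1, had 3 peaks, and 2 of them stood at the start of its coding sequence. The first, bases 241 to 411, held the start codon and both GGACT motifs shown for SESN2, 74 and 47 bases from its nearer edge. It was the only placed member peak with more than 1 GGACT. With the current RefSeq start, 9 bases away, the middle of this peak moved just into the 5′ untranslated region. The second peak, bases 466 to 650, lay in the coding sequence, and the third, bases 1981 to 2128 (chr1:28281019-28281166), lay in the long 3′ untranslated region.

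On the GENCODE transcripts, ASNS, which makes asparagine from aspartate, had the only placed member peak with its middle in a 5′ untranslated region. That peak lay at bases 169 to 407 and held DRACH 4 times. The RefSeq start of ASNS that could be placed lies 134 bases away. With it the middle of the peak stayed in the 5′ untranslated region, while the peak would reach across the start codon. The second ASNS peak, bases 571 to 730 (chr7:97868956-97869115, minus strand), lay at the start of the coding sequence. Neither held GGACT or touched its 2 upstream reading frames. CHAC1, an enzyme that breaks down glutathione, had peaks at bases 66 to 263 and 757 to 942 of a transcript with no match in GENCODE. On the 4 GENCODE forms of CHAC1 and the RefSeq start the first fell in the coding sequence or the 5′ untranslated region and the second in the 3′ untranslated region or the coding sequence, so no region is given for them. On 1 of these forms the first CHAC1 peak would hold 2 GGACT, and on the others none.

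The change in m6A after TRMT10A knockdown could not be given for any member. The gene columns of the authors' deposited table follow the order of the accessions and the columns with the log2 ratio of knockdown over control, the common or unique call and the motif positions follow the order of the ratio. The ratio rose from the line before in 0 of 26474 lines, and the accession fell in 0. Only 5.62% of 7442 listed motif positions lay inside the peak on their own line. Neighbouring lines shared the same call in 72.5% of pairs from 1 transcript and in 73.0% of pairs from 2 transcripts. A ratio was tied back to a peak only where at least 2 listed motif positions matched exactly those found in 1 peak, which gave 288 ratios, 0 of them for the 19 member peaks. Only 1 member peak, the first of SESN2, held 2 or more GGACT on its transcript and could have been joined in this way. Its expected motif positions on the GENCODE transcript stood on 0 ratio lines, so that its numbering there was not borne out by a match. Allowing single motifs gave 937, again 0 for the members. Whether a member's peak was called common to both arms or unique to one is unknown for the same reason.

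The numbers that happen to stand on the members' lines show what this means. The authors' deposited table prints 1.49 on the lines of ATF3 and -1.07 on those of ASNS, with ATF4 at 0.63 and DDIT4 at -0.28. Read across, these would pass for a gain on ATF3 and a loss on ASNS after knockdown. They follow the place of the accession in the sorted list and are not values of these genes.

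TRMT10A CLIP clusters were listed for ATF4, DDIT4, ASNS and SESN2 in replicate 2 and for no member in replicate 1. The count of 4 of 9 in replicate 2 stands beside 3.38% of protein-coding genes, or 5.80% of those with an m6A peak. The count of 0 of 9 in replicate 1 stands beside 2.19% and 3.59%. The shares of 3.38% and 2.19% count genes whether or not these cells express them. Expression was not examined, so the members and all genes are not set on equal terms. ATF3, DDIT3, CHAC1, TRIB3 and PPP1R15A were in neither table. No cluster within the members' loci was listed under another gene. The tables hold only clusters with at least 2 events, so that a missing gene sets no upper limit on binding.

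The 4 members together held 7 clusters with 17 events in replicate 2, and each cluster lay in coding sequence. ATF4 had 10 of the events in 4 clusters, with an exact 95% Poisson interval of 4.80 to 18.4. Of the 500 protein-coding genes with exon clusters in replicate 2, 63 had more events than ATF4. SESN2 had 3 events in 1 cluster (0.619 to 8.77), and DDIT4 and ASNS had 2 events in 1 cluster each (0.242 to 7.22), which is the lowest count the table holds. The intervals are for counting error alone and take no account of the minimum of 2 events that a listed cluster has. PCR copies of 1 molecule may also be among the reads. Counts this low are usual for coding sequence, where 84.1% of the 585 clusters in replicate 2 had 2 to 4 events.

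None of the 7 member clusters was found in replicate 1. Of the coding clusters of replicate 2 with 2 to 4 events, 19.1% were found there, and of those with 5 or more events, 66.7%. The members' clusters had 2 events in 5 cases, 3 in 1 and 4 in 1. The share found in replicate 1 was 13.2% for clusters with 2 events, 24.2% with 3 and 43.4% with 4. Over all genes together, fewer than 1 in 2 clusters of each of these sizes were found in both replicates.

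**Figure D3:**
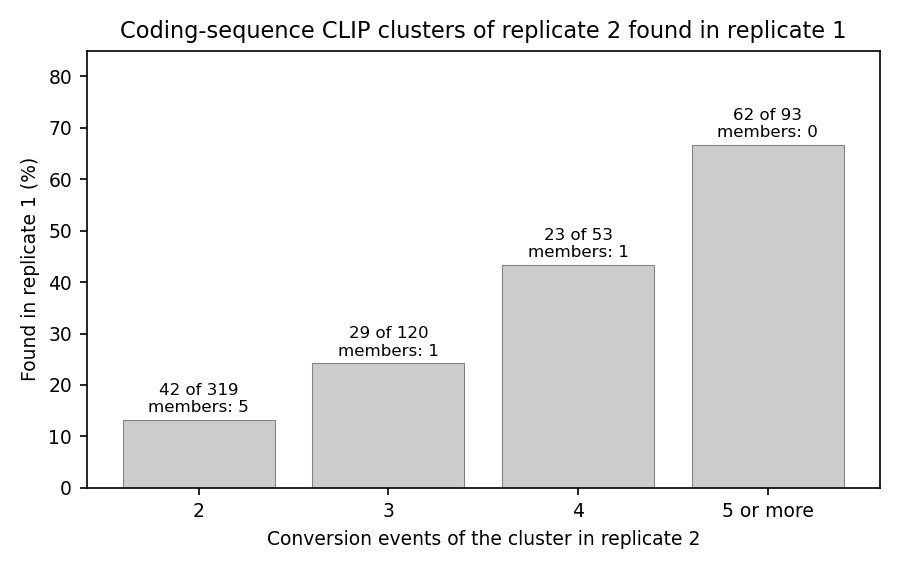
Percent of coding-sequence CLIP clusters of replicate 2 that shared at least 1 base with a cluster of replicate 1 (vertical axis), by the number of conversion events in replicate 2 (horizontal axis), with the counts behind each bar and the number of member clusters in it. The share rises from 13.2% with 2 events to 66.7% with 5 or more, and the 7 member clusters all sit in the bars for 2, 3 and 4 events.

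In 3 of the 7 clusters the CLIP cluster and an m6A peak of the same gene overlapped. Among all 406 coding clusters of replicate 2 on placed transcripts with m6A peaks, 26.1% overlapped a peak. The ATF4 cluster with most events, 4, lay at bases 1342 to 1365 and thus just inside the start of the ATF4 m6A peak. The other ATF4 clusters had 2 events each. Those before the peak ended 259 and 79 bases short of it, and the last began 123 bases after it. The DDIT4 cluster, bases 744 to 769, lay in the second DDIT4 peak and began with its GGACT, so that the late DDIT4 site and the DDIT4 cluster printed above share their letters. With 96.1% of the DDIT4 coding sequence under peaks, almost any coding cluster of DDIT4 would overlap one. The SESN2 cluster, bases 530 to 550, lay in the second SESN2 peak, and the ASNS cluster, bases 2082 to 2102, lay 1352 bases from the nearer ASNS peak. The count of 3 overlaps was the same with the RefSeq starts. The ATF4 overlap would be lost if the peak had been numbered on the shorter ATF4 transcript, where it would lie after the coding sequence.

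The share of T in the member clusters, which is uridine in the RNA itself, lay within the range of other coding clusters. T made up a median of 28.6% of their bases (15.4% to 33.3%). In 546 placed coding clusters of replicate 2 it made up a median of 22.9% (10.7% to 40.0% between the 5th and the 95th percentile). GGACT was found on the transcript strand in 1 of the 7, that of DDIT4, and in 9.34% of the 546.

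The other genes of the pathway, 61 in 7 lists, were also mostly listed with m6A. At least 1 peak was found for 56 of the 61 (91.8%), with 184 peaks in all, where 44.6% of protein-coding genes had one. Here too, the share of 44.6% counts genes whether or not these cells express them. All 8 eIF2 kinases and their regulators had peaks, most in EIF2AK1, the heme-regulated kinase, and GCN1, the activator of GCN2, with 6 each. All 8 subunits of eIF2 and of its exchange factor eIF2B had peaks, most in EIF2S3 with 5. All 4 genes of the eIF2alpha phosphatase had peaks, most in PPP1R15B, the constitutive partner of PPP1R15A, with 9. These upstream genes were thus listed without exception.

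Of the ATF4 partners and related bZIP factors 6 of 8 had peaks, most in ATF2 and ATF7 with 5 each, and BATF3 and NUPR1 had none. Of the amino acid supply genes 15 of 16 had peaks, most in SLC7A1, a carrier of cationic amino acids, with 8, and ALDH1L2 had none. Of the secreted and growth genes 6 of 7 had peaks, most in VEGFA with 5, and FGF21 had none. Of the endoplasmic reticulum stress partners 9 of 10 had peaks, most in DNAJC3, an inhibitor of the eIF2 kinases, with 8, and ERN1 had none. No ratio of knockdown over control could be tied to any of the 61 genes.

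TRMT10A CLIP clusters were rarer. In all, 7 of the 61 genes were listed in either replicate, 4 in replicate 1, 5 in replicate 2 and 2 in both. Over all protein-coding genes the shares were 4.12% in either and 1.44% in both, counted whether or not these cells express them. Among protein-coding genes with an m6A peak, the shares were 3.59% in replicate 1 and 5.80% in replicate 2. Apart from PHGDH, none of the 7 genes had more than 5 events in a replicate. PHGDH, the first enzyme of serine synthesis, had 3 clusters in each replicate, with 6 events in replicate 1 and 8 in replicate 2. SLC7A1 had 2 events in replicate 1 and 3 in replicate 2. Both genes had their clusters in coding sequence and, unlike any of the 9 members, were listed in both replicates. Of the 7 genes, 5 belonged to the amino acid supply list, which is also the largest list, with 16 of the 61 genes. The subunits of eIF2 and eIF2B, the bZIP factors, the secreted and growth genes and the endoplasmic reticulum stress partners had no cluster.

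**Figure D4:**
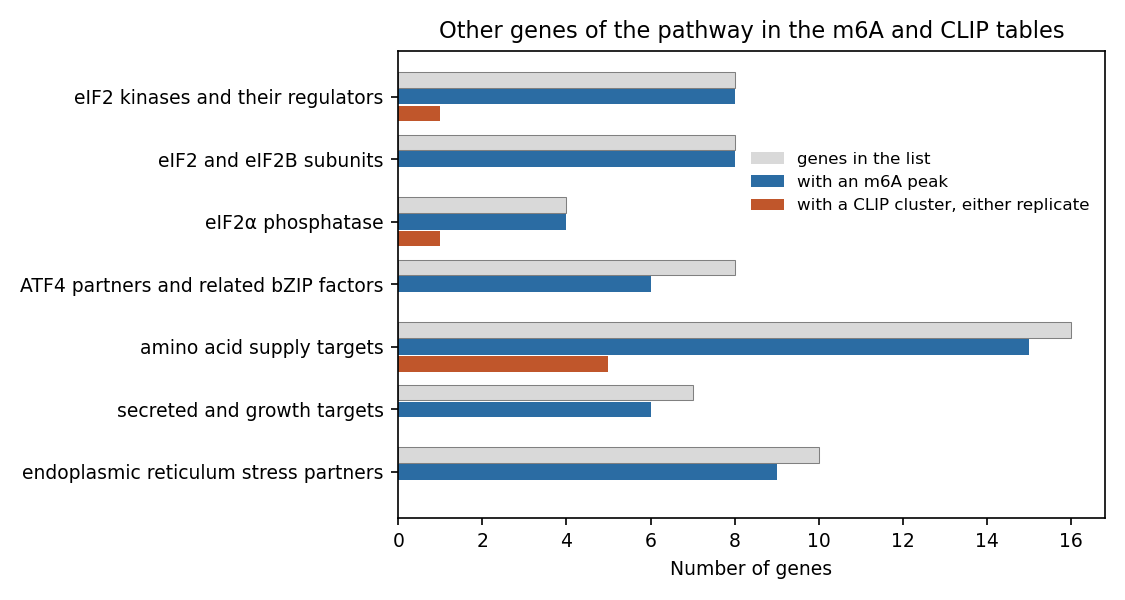
Number of genes (horizontal axis) in each of 7 lists of other pathway genes, with all genes in grey, those with at least 1 m6A peak in blue and those with a CLIP cluster in either replicate in orange. In all lists most genes have a peak (56 of 61), and 5 of the 7 genes with a cluster are in the amino acid supply list, the largest list.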

How the data were processed

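Per the file headers, the m6A table gives first and last bases of peaks on RefSeq transcripts and, as deposited by the authors, a log2 ratio of enrichment (TRMT10A knockdown over control), a call of common or unique, and motif positions. The CLIP tables hold deposited counts of conversion events per cluster and of clusters per line, not normalized, per the file headers. The submitters' processing notes name hg38, TopHat2 and Cuffdiff with no role. For the callers, their thresholds, the transcript versions and the type of conversion, the sources used here give nothing. Total events are 342690 and 496030 for the 2 CLIP replicates, and low counts limit their precision. The m6A depth is unknown.

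Groups came from the sample titles. Whether separate cultures gave the CLIP replicates is not stated in the labels. Members were matched by symbol and gene identifier, and peaks were placed through 8885 of 9282 accessions (95.7%) with a GENCODE release 29 transcript. Clusters of the replicates with 1 or more bases in common on 1 strand were matched. GGACT and DRACH were searched on the transcript strand only. Work was done in Python 3.11.15 with numpy 2.4.6 and scipy 1.17.1, and the joins were tested on simulated data. The text names all 9 members, and, of the other 61 genes, those in both CLIP replicates and the gene with most peaks in each list; genes without a peak were named as counts of 5 or fewer, after their values were seen. Members and lists were chosen with earlier results of these data known, and no set test was made. Alternatives were peak length, matching by accession, merged peaks, other region rules, motifs and windows, other transcript starts, a minimum of 5 events, and each CLIP replicate left out. Levels of TRMT10A in the knockdown arms were not analysed here.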

Additional observations from a re-analysis of the deposited data

How the results depend on the processing

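Of 31 alternatives, 24 left their count within 1.5 times and 7 did not. Some of the 24 could not have moved. The shortest member peak was 100 bases long, which is the minimum length tried. All member clusters lay in exons, and no member was listed in replicate 1. The rules for exons only, for leaving out replicate 1 and for more shared bases thus had nothing to remove among the members. Member peaks in the 5′ untranslated region rose from 1 to 3 when every overlapped region was counted, and to 2 with the nearest or the farthest RefSeq start. Those starts were chosen after seeing the data. They lowered the coding count from 11 to 9 and the GGACT count from 6 to 5. The GGACT count became 15 with DRACH. Members with a CLIP cluster fell from 4 to 0 when at least 5 events were required. With either CLIP replicate left out, the count of members ranged from 0 to 4, with 0 without replicate 2, and that of other pathway genes from 4 to 5 in place of 7. The count of member peaks was 17 in place of 19 when touching peaks were counted once. Another fold for the ratio and centring of the ratios gave no value, because no member ratio was joined. No paired analysis was possible because only the CLIP samples carry replicate numbers, and they form 1 group.

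Placement is limited by transcript versions. Of 123 ratio lines whose motif spacing could be found on a GENCODE transcript, 29.3% needed no shift, and the median shift was 24.0 bases (90th percentile 253). CLIP results of the members rest on replicate 2 alone and on 17 events.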

Other observations

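ATF4 was listed in CLIP replicate 2 only. In replicate 2, 70 protein-coding genes had at least as many exon events as ATF4, and 5 of them (7.14%) were not listed in replicate 1 at all. These were ATF4, OBSL1, PPP1R2, SIRT1 and SLC25A5, named after their values were seen. Of the 7 genes with exactly as many events, ATF4 included, ATF4 was the 1 not listed in replicate 1, and of the 63 with more events, 4 (6.35%) were not. Counted by clusters, 41 genes had at least as many as the 4 of ATF4, and 2 of them (4.88%), ATF4 and WNK1, were not listed in replicate 1. Over all 500 protein-coding genes with exon clusters in replicate 2 the share was 64.4%. The events of ATF4 were spread over 4 small clusters, of which the largest had 4 events. No reason for the difference between the replicates was tested.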
